A study of Arabidopsis thaliana with 22 samples.

Results

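The difference between the ABA response of wild type and that of the ost1-2 sal1-8 double mutant was examined in Arabidopsis leaves, as the ABA minus mock change of wild type less the ABA minus mock change of the double mutant. It rests on 12 of the 22 arrays of the series, 3 in each of 4 groups, chosen by their genotype and treatment labels: mock-treated and ABA-treated wild type, and mock-treated and ABA-treated ost1-2 sal1-8. Wild type here is the F1 hybrid of the accessions Col-0 and Ler. The double mutant carries ost1-2, which was in Ler, together with sal1-8 (alx8 in the labels), which was in Col-0, and was taken from the F2 of a cross between them. Rosettes were sprayed with 20 µM ABA or with its ethanol solvent at an age of 30 days, and the labels give 45 min for the ABA treatment whereas their protocol gives harvest at 2 h. Each sample was a single leaf according to the methods of the study. Effects of the mutations on the difference of responses therefore cannot be told apart from effects of the hybrid against a segregating Col-0 and Ler background.

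Abscisic acid (ABA) is the hormone of water deficit in plants. Its receptors, the PYR/PYL proteins, inhibit group A PP2C phosphatases when they bind it, which frees SnRK2 kinases such as OST1 to act on ion channels of guard cells and on transcription factors of ABA-raised genes. SAL1 is a phosphatase that degrades the nucleotide PAP. Without it PAP accumulates and inhibits XRN exoribonucleases, and sal1 mutants are known for drought tolerance and altered stress gene expression. The 4 groups therefore ask which transcripts respond to ABA differently in a double mutant of OST1 and SAL1, within the limit of the background given above.

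Levels are log2 intensities of RMA-summarised probe sets, so a difference of 1 is a doubling. The array medians ran from 4.6 to 5.0 over the 12 arrays. The letters A to G name arrays by the stretch of adjoining sample numbers in which they lie, and each stretch held a single treatment. Stretches B to D run on without a gap in number, as do E to G, and part where the treatment changes. A single treatment per stretch is therefore partly a matter of how they were divided. Array F of mock-treated wild type had the lowest mean correlation with its group (0.959), array E of the ABA-treated double mutant had the highest median, and no pair of arrays was identical. The leaf genes measured were high in all groups, with array means of 10.8 to 11.0 in mock-treated wild type and 10.0 to 10.2 in the mock-treated double mutant over 3 of 13 listed photosynthesis genes. The gap between these means rests largely on a single gene, PRK, whose own means are given below. The single root marker measured of 7 seed and root genes, PYK10, a beta-glucosidase, lay between 3.39 and 4.57 on the wild type arrays and between 5.79 and 9.05 on those of the double mutant. The guard cell genes measured, 5 of 16, had array means of 7.05 to 8.33 in wild type and 7.29 to 7.92 in the double mutant. All of these but FAMA are named only by a table that the study chose for its ABA response in wild type. Their means over mock and ABA arrays therefore reflect that response and are not a measure of guard cells alone. What part these levels have in the differences below was not tested, and in whole leaves fewer cells of a type and less RNA per cell cannot be told apart. No probe set analysed here is named for OST1 or SAL1, so their own transcripts did not serve as a check of the labels.

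The response to ABA differed between wild type and the double mutant for 19 probe sets of 13843 tested (0.137%, limma, called where the p adjusted by Benjamini-Hochberg was under 0.05 and the fold over 1.5). Of these, 18 name a single gene and 1 names a pair. The response was higher in wild type for 9 (0.0650% of those tested) and lower in wild type for 10 (0.0722%). At an unadjusted p under 0.05 the count was 1513. For each gene, the group mean that stands apart was taken as that whose omission leaves the other 3 closest together, and it was said to make the difference alone where its gap to the nearest of them was at least their range. ABA-treated wild type stood apart for 9 genes, mock-treated wild type for 5 and the ABA-treated double mutant for 5. Mock-treated double mutant stood apart for 0 of the 19. A single mean made the difference for 15 genes, and more than 1 mean did for 4. The plot of levels on the 12 arrays shows these 3 shapes.

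**Figure D1:**
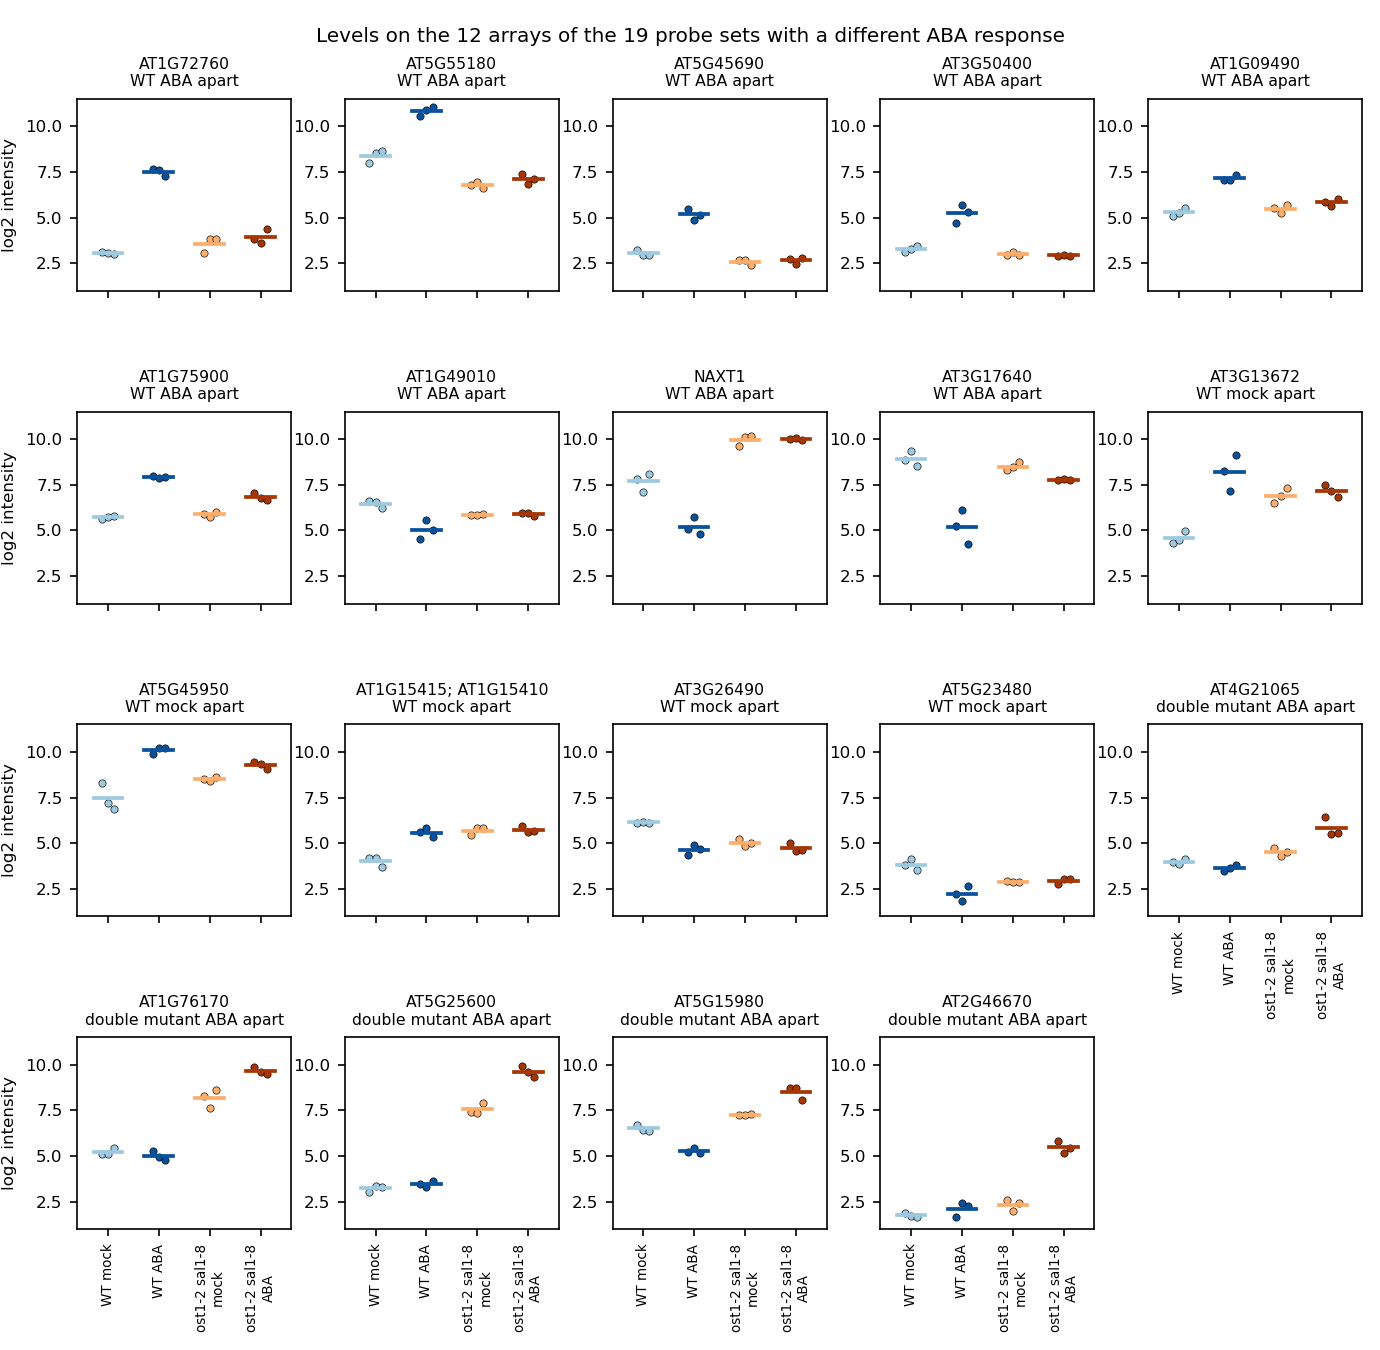
Log2 intensity (vertical axis) of the 19 probe sets on the 12 arrays, with points for arrays, bars for group means and the mean that stands apart named above each panel. The first 9 panels turn on ABA-treated wild type, the next 5 on mock-treated wild type and the last 5 on the ABA-treated double mutant.

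The ABA-treated wild type leaves stood alone for 6 genes with a higher response in wild type. For AT1G72760, the gene with the highest difference of the 19, mock-treated wild type arrays read 3.0, 3.06 and 3.12 and ABA-treated ones 7.28, 7.6 and 7.68, while the double mutant read 3.04, 3.81 and 3.83 after mock and 3.59, 3.84 and 4.36 after ABA. Its 3 ABA-treated wild type arrays lay far above the other 9. The response was 4.46 ± 0.42 (SE) in wild type and 0.37 ± 0.42 in the double mutant, a difference of 4.09 ± 0.60 (adjusted p = 0.00519, limma).

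AT5G45690 and AT3G50400 had the same shape at a lower level. AT5G45690 read 2.96, 2.96 and 3.22 in mock-treated and 4.87, 5.17 and 5.5 in ABA-treated wild type, against 2.38, 2.69 and 2.7 after mock and 2.46, 2.76 and 2.8 after ABA in the double mutant, with a difference of 2.05 ± 0.27 (adjusted p = 0.00436). AT3G50400 read 3.12, 3.3 and 3.43 after mock and 4.71, 5.33 and 5.69 after ABA in wild type, against 2.94, 2.94 and 3.1 after mock and 2.9, 2.91 and 2.97 after ABA in the double mutant, with a difference of 2.02 ± 0.28 (adjusted p = 0.00436). For both, ABA-treated wild type lay above every other array, and the double mutant arrays of mock and ABA overlapped within a narrow range.

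For AT5G55180, named in the study's table as a glycosyl hydrolase of family 17 (enzymes that cut beta-glucans), the double mutant was low before ABA as well. Its arrays were 7.98, 8.54 and 8.66 in mock-treated and 10.54, 10.89 and 11.06 in ABA-treated wild type, and 6.63, 6.77 and 6.94 after mock and 6.85, 7.09 and 7.37 after ABA in the double mutant. The 3 other means spanned 1.62 and ABA-treated wild type stood 2.44 above the nearest of them, so it still made the difference alone (2.11 ± 0.37, adjusted p = 0.019). The mock level of the double mutant was itself lower, at a difference from wild type of -1.62 ± 0.26.

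AT1G75900 is EXL3, a GDSL esterase/lipase, of a family of secreted or lipid-acting hydrolases. It rose in both genotypes: from 5.64, 5.73 and 5.8 to 7.87, 7.94 and 7.96 in wild type and from 5.72, 5.92 and 6.0 to 6.65, 6.77 and 7.05 in the double mutant. Mock levels overlapped, ABA arrays did not overlap mock arrays in either genotype, and after ABA the double mutant lay below wild type. The gap of ABA-treated wild type to the nearest mean barely reached the range of the others, both at 1.1. Its responses were 2.2 ± 0.14 and 0.95 ± 0.14, which makes it the only one of the 9 with a higher response in wild type for which the double mutant also passed the test (difference 1.26 ± 0.19, 95% interval 0.85 to 1.66, adjusted p = 0.0072). AT1G09490 rose from 5.08, 5.25 and 5.54 to 7.06, 7.06 and 7.35 in wild type and read 5.23, 5.55 and 5.7 after mock and 5.65, 5.87 and 6.02 after ABA in the double mutant, a difference of 1.52 ± 0.29 (adjusted p = 0.0383). Its 3 lower groups lay within 0.56 of each other.

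ABA-treated wild type also stood alone, on the low side, for 3 genes. NAXT1, a nitrate excretion transporter of the NRT1/PTR family known to export nitrate from root cells, read 7.11, 7.84 and 8.12 in mock-treated wild type and 4.81, 5.08 and 5.75 after ABA, against 9.65, 10.11 and 10.17 after mock and 9.94, 9.99 and 10.05 after ABA in the double mutant. The double mutant was above all wild type arrays in both treatments and did not move with ABA beyond its spread (response 0.02 ± 0.25), whereas wild type fell by 2.48 on the log2 scale. The difference was -2.5 ± 0.35 (adjusted p = 0.00436), and ABA-treated wild type lay 2.48 under the nearest mean while the other 3 spanned 2.31, which is close to the limit of the rule for a single mean.

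AT3G17640, a leucine-rich repeat protein, had the lowest difference of the 19. Wild type read 8.51, 8.85 and 9.35 after mock and 4.28, 5.25 and 6.09 after ABA, and the double mutant 8.3, 8.46 and 8.73 after mock and 7.74, 7.78 and 7.8 after ABA. The double mutant arrays lay lower after ABA than after mock and above all ABA-treated wild type arrays, which spread widely. The difference was -2.97 ± 0.49 (adjusted p = 0.016), with a response of -0.72 ± 0.35 in the double mutant that did not pass the test.

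AT1G49010, a protein with a myb/SANT-like DNA-binding domain, read 6.23, 6.54 and 6.61 after mock and 4.56, 5.0 and 5.54 after ABA in wild type against 5.82, 5.87 and 5.91 after mock and 5.79, 5.94 and 5.98 after ABA in the double mutant. The ABA-treated wild type arrays were the lowest, and those of the double mutant overlapped (-1.46 ± 0.27, adjusted p = 0.0303). Mock levels contribute as well, since the mock-treated wild type arrays lay above those of the double mutant. The mock level of the double mutant differed from wild type by -0.59 ± 0.19 (adjusted p = 0.0338, limma).

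For 5 genes mock-treated wild type stood apart, and the mean of the double mutant without ABA lay between mock-treated and ABA-treated wild type or beyond the latter. AT3G13672, a protein with the SINA domain of ubiquitin ligases, read 4.32, 4.48 and 4.95 in mock-treated wild type and 7.18, 8.27 and 9.14 after ABA. In the double mutant it read 6.5, 6.89 and 7.33 after mock and 6.82, 7.14 and 7.49 after ABA, ranges that overlap each other and that of ABA-treated wild type. Its mock level was 2.32 ± 0.40 higher in the double mutant (adjusted p = 3.26e-04), and the difference of responses was 3.37 ± 0.56 (adjusted p = 0.016).

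The probe set shared by AT1G15415 and AT1G15410 showed the plainest case, in which mock-treated wild type read 3.7, 4.17 and 4.2 and the other 9 arrays lay together. These were 5.34, 5.59 and 5.82 in ABA-treated wild type, 5.44, 5.82 and 5.82 in the mock-treated and 5.62, 5.66 and 5.94 in the ABA-treated double mutant (difference 1.52 ± 0.28, adjusted p = 0.0349). The other 3 means spanned 0.16, and the signals of both loci cannot be told apart.

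AT5G45950, a second GDSL esterase/lipase, was lowest in mock-treated wild type (6.86, 7.22 and 8.31), highest in ABA-treated wild type (9.87, 10.2 and 10.24) and between them in the double mutant (8.41, 8.49 and 8.6 after mock and 9.04, 9.36 and 9.44 after ABA). Array F of mock-treated wild type lay close to the double mutant. More than 1 mean made its difference of 1.86 ± 0.36 (adjusted p = 0.0457), with a wild type response of 2.64 ± 0.25 that passed the test and a double mutant response of 0.78 ± 0.25 that did not.

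AT3G26490, of the NPH3 family of phototropic-response proteins, and AT5G23480 were high in mock-treated wild type. AT3G26490 read 6.09, 6.13 and 6.18 there, and 4.33, 4.71 and 4.9 in ABA-treated wild type, 4.86, 5.03 and 5.22 in the mock-treated and 4.59, 4.63 and 5.0 in the ABA-treated double mutant. AT5G23480 read 3.52, 3.79 and 4.12 in mock-treated and 1.85, 2.2 and 2.67 in ABA-treated wild type, with 2.85, 2.9 and 2.94 after mock and 2.75, 3.03 and 3.07 after ABA in the double mutant between them. In both genes the mock-treated wild type arrays lay above the other 9. AT3G26490 was the last gene inside the threshold (-1.19 ± 0.23, adjusted p = 0.0495), and the first outside it was a probe set shared by AT5G50562 and 3 other loci (-1.78, adjusted p = 0.0568), in which the ABA-treated double mutant stood apart. AT5G23480 had a difference of -1.62 ± 0.28 (adjusted p = 0.016). Both treatments contribute to it, as the double mutant differed from wild type by -0.91 ± 0.20 after mock and by 0.71 ± 0.20 after ABA, both called. Without array D of ABA-treated wild type, another mean stood apart for this gene.

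The remaining 5 genes, all with a lower response in wild type, rose with ABA in the double mutant, and in none of them was a rise called in wild type. AT2G46670 read 1.67, 1.7 and 1.89 after mock and 1.65, 2.28 and 2.42 after ABA in wild type, 1.96, 2.42 and 2.6 in the mock-treated double mutant and 5.19, 5.46 and 5.84 after ABA. The ABA-treated double mutant stood alone, 3.17 ± 0.33 above its mock, while the other 9 arrays lay near the lower end of the scale (-2.81 ± 0.47, adjusted p = 0.016).

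AT4G21065 read 3.85, 3.97 and 4.14 after mock and 3.46, 3.66 and 3.83 after ABA in wild type against 4.28, 4.54 and 4.75 after mock and 5.48, 5.59 and 6.44 after ABA in the double mutant. Only the ABA-treated double mutant lay apart, with 1 array above the other 2 (-1.65 ± 0.29, adjusted p = 0.0224).

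AT5G25600 and AT1G76170 were high in the double mutant in both treatments. AT5G25600 read 3.02, 3.33 and 3.37 after mock and 3.32, 3.45 and 3.63 after ABA in wild type, and 7.34, 7.39 and 7.92 rising to 9.34, 9.6 and 9.9 in the double mutant. AT1G76170 read 5.11, 5.13 and 5.45 after mock and 4.76, 4.96 and 5.28 after ABA in wild type, and 7.61, 8.3 and 8.61 rising to 9.5, 9.61 and 9.85 in the double mutant. Both double mutant means made these differences (-1.84 ± 0.31, adjusted p = 0.016, and -1.71 ± 0.33, adjusted p = 0.0386), and wild type did not move beyond its spread in either gene.

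AT5G15980, a pentatricopeptide repeat protein of the kind that binds organellar RNA, moved in opposite directions. It fell from 6.39, 6.43 and 6.72 to 5.19, 5.2 and 5.43 in wild type (response -1.24 ± 0.25) and rose from 7.22, 7.25 and 7.31 to 8.07, 8.71 and 8.73 in the double mutant (response 1.25 ± 0.25). The 4 groups did not overlap with each other, and both responses passed the test (difference -2.49 ± 0.35, adjusted p = 0.00436). More than 1 mean made this difference. Of the 19, the 2 responses had opposite signs in 7, and AT5G15980 was the only one in which both were called with opposite signs.

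For the 3 of these 5 genes with a measured neighbour in the reference gene table (RefSeq, TAIR10.1), a neighbour was called as raised by ABA in wild type. The pairs were noticed after the values were seen, the strand is not in the table, and they are given as a description. AT2G46670 lies next to HB-7, a homeobox-leucine zipper transcription factor of the ABA and drought response, AT5G25600 next to RD22, a dehydration-responsive protein, and AT5G15980 next to KIN2, a cold- and ABA-induced protein. HB-7 rose from 3.66, 4.51 and 5.12 to 7.99, 8.12 and 9.22 in wild type and from 3.38, 4.35 and 4.98 to 7.32, 7.51 and 7.58 in the double mutant, so its response was called in both, whereas that of AT2G46670 was called in the double mutant alone. RD22 rose from 9.95, 10.67 and 10.7 to 11.48, 11.59 and 11.7 and from 9.29, 9.33 and 9.88 to 10.51, 10.67 and 10.98. KIN2 rose from 11.02, 11.56 and 11.79 to 12.73, 12.74 and 13.04 in wild type and read 10.77, 11.15 and 11.48 after mock and 11.94, 12.36 and 12.54 after ABA in the double mutant, a response of 1.14 ± 0.33 that did not pass the test. Differences of responses for these 3 neighbours were 0.78, -0.07 and 0.24, none of them called. HB-7 and RD22 are named only by a table of genes that the study chose for their ABA response in wild type on these arrays. AT1G76170 and AT4G21065 had no measured neighbour, and ERD14, which lies next to AT1G76170, was not analysed here.

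**Figure D2:**
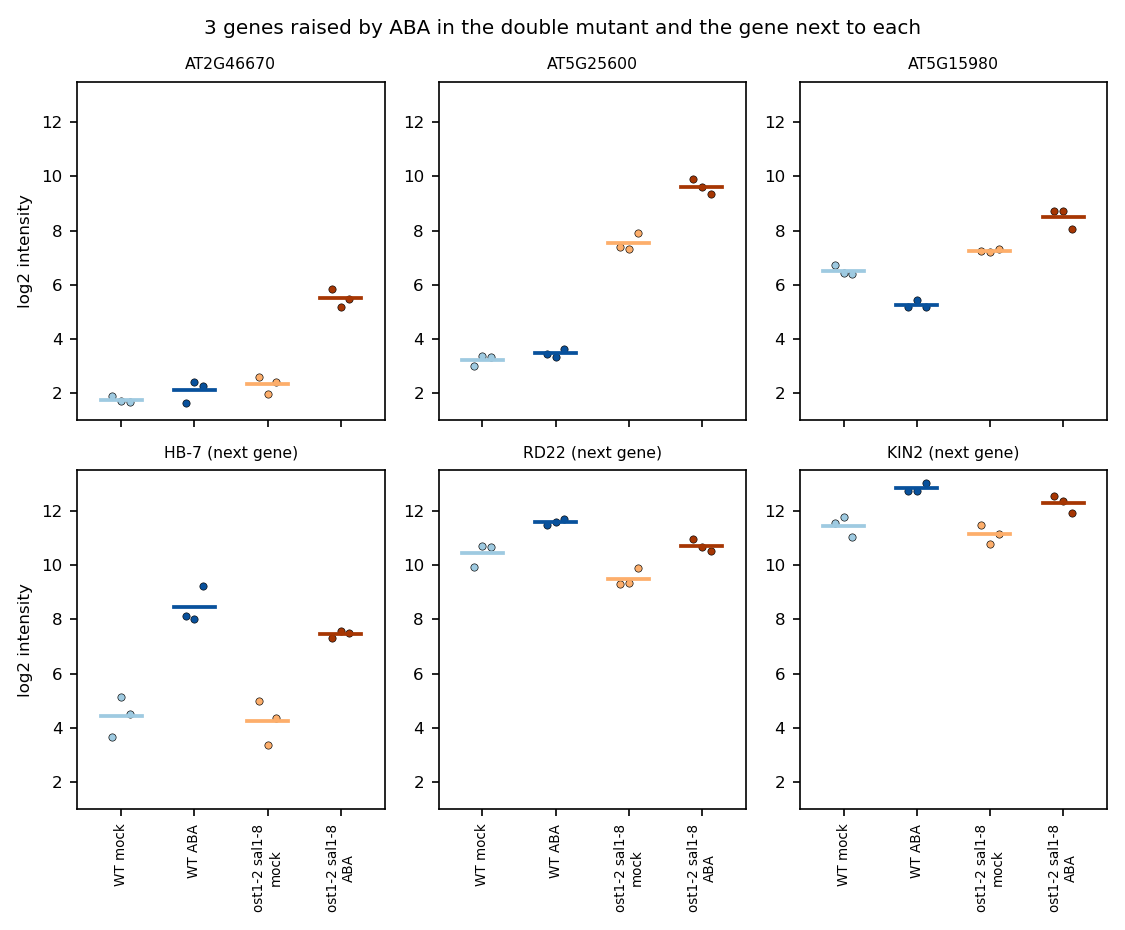
Log2 intensity (vertical axis) on the 12 arrays of AT2G46670, AT5G25600 and AT5G15980 (upper row) and of the neighbouring gene in the reference table (lower row), with points for arrays and bars for group means. The upper genes are highest in the ABA-treated double mutant, whereas the lower genes are highest in ABA-treated wild type and have higher means after ABA than after mock in both genotypes.

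The same count was made for all genes called as raised by ABA in the double mutant but not called in wild type. Of 45 such genes, 35 had a measured neighbour, and for 18 of these (51.4%) a neighbour was called as raised by ABA in either genotype. The share was 20.9% of 574 genes called as raised in wild type only, 24.8% of 113 raised in both, and 10.8% of all 10071 single genes with a measured neighbour. With the neighbours named by the array annotation only, these shares were 34.4% of 32, 16.2% of 544, 18.5% of 108 and 8.23% of 9807. Some of the pairs count each other, among them OTP80 and AT5G59210, and both TET15 and AT5G57790 lie next to CER3. Further pairs were AT5G15950 (response 0.79 in wild type and 1.84 in the double mutant) with KIN1 (2.93 and 2.07), and AT5G42053 (0.06 and 1.84) with AT5G42050 (1.18 and 0.82). KIN1 and KIN2 lie side by side in the reference table, with AT5G15950 and AT5G15980 on either side of the pair. A difference between these shares was not tested. AT2G46670 and AT5G25600, whose neighbours prompted the count, are among the 45 and the 18, and no share was taken without them.

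The single mutants were not used by the contrast and show the same genes in other leaves. In sal1-8, 292 probe sets responded to ABA (2.11% of those tested), among them 5 of the 19, all upward, and 4 of these 5 were genes in which the ABA-treated double mutant stood apart. The sal1-8 response was 1.88 ± 0.33 for AT2G46670 (from 2.23 to 4.11), 1.56 ± 0.23 for AT1G76170, 1.07 ± 0.22 for AT5G25600 and 1.07 ± 0.25 for AT5G15980, all past the test. AT4G21065 had a sal1-8 response of -0.02 ± 0.21 that did not pass, and AT5G45690 was the fifth, at 0.82 ± 0.19. In ost1-2, 5 probe sets responded (0.0361%), none of them among the 19, whose largest response in either direction was 0.82 with 2 arrays per group. At an unadjusted p under 0.05, limma counted 1291 in ost1-2.

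Among the genes with unlike levels in the single mutants, NAXT1 had mock and ABA means of 9.8 and 9.75 in sal1-8 and of 6.88 and 6.15 in ost1-2. AT5G25600 had 7.58 and 8.65 in sal1-8 against 3.04 and 3.12 in ost1-2. For AT5G55180 the means were 6.84 and 7.02 in sal1-8 and 9.78 and 9.61 in ost1-2. The sal1-8 plants were Col-0 and the ost1-2 plants Ler, so that genotype and accession cannot be told apart in these levels.

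**Figure D3:**
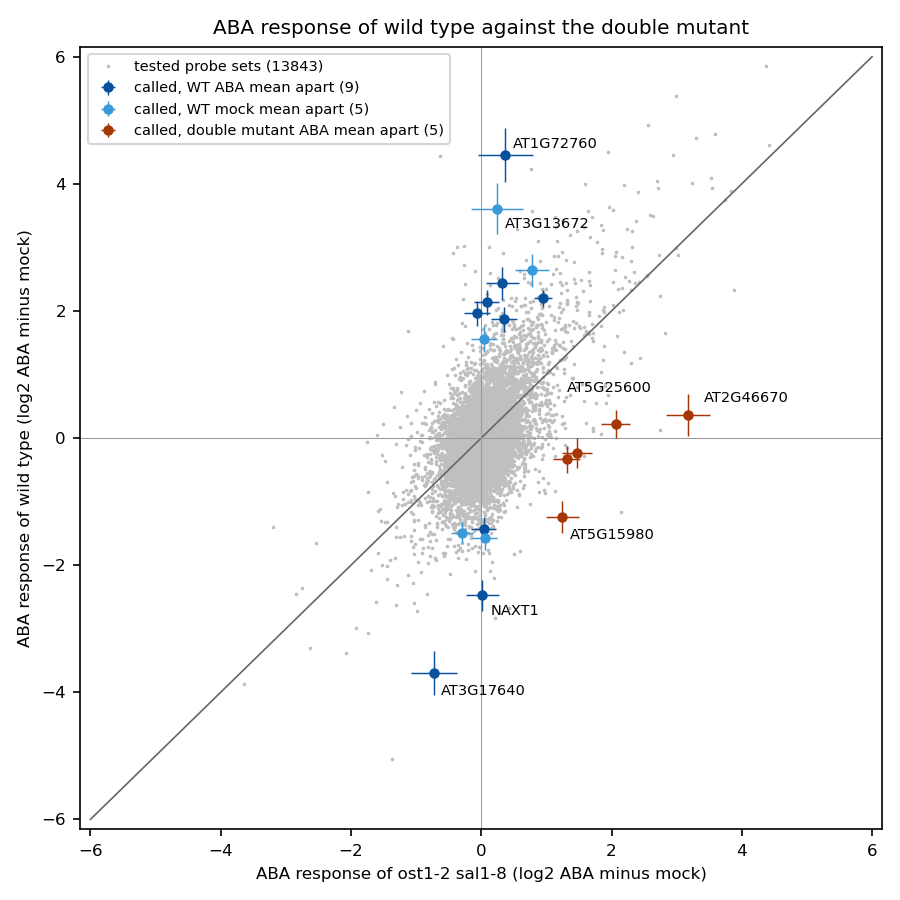
ABA response of wild type (vertical axis) against that of ost1-2 sal1-8 (horizontal axis), both as log2 ABA minus mock, for 13843 probe sets, with the 19 called ones in colour, bars of 1 SE and the line of equal responses. The called genes of wild type ABA or wild type mock lie along the vertical axis and the 5 of the ABA-treated double mutant to the right at low or negative wild type responses.

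In wild type 1657 probe sets responded to ABA (12.0%), 880 upward and 777 downward, and in the double mutant 252 did (1.82%), 194 upward and 58 downward. Of these, 189 were called in both, which is 11.4% of the wild type calls and 75% of the double mutant calls, and 188 moved in the same direction. A further 1468 were called in wild type only, and for 13 of these the difference itself was called. Likewise 63 were called in the double mutant only, and for 4 of these the difference was called. The other calls in a single genotype are not shown to differ. The median SE of a difference was 0.30, and the smallest difference called was 1.19.

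Among the 19, the wild type response was called for 15 and the double mutant response for 6. Mock levels differed between the genotypes for 11 (16.8% of all tested) and ABA levels for 16 (26.7%). These 4 comparisons use the same groups as the contrast, so they say how each difference is made up and nothing more.

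Below the threshold, 72 further probe sets of a single gene had an unadjusted p under 0.001, and the 8 highest and 8 lowest of these are described as values, none of them called. Adjusted p over the 16 ran from 0.064 to 0.139. ABA-treated wild type stood apart for 10 of them. AT5G23950 (3.14, 5.77, 2.98 and 2.88 as means of mock and ABA wild type and of mock and ABA double mutant) and AT4G00870 (3.9, 6.5, 3.69 and 3.83 in the same order) were, of these 4 groups, high in ABA-treated wild type alone. So was AT2G05540, a glycine-rich protein (2.68 ± 0.65). In ost1-2, AT4G00870 had means of 6.08 after mock and 7.0 after ABA. AT1G21400, a subunit of the dehydrogenase of branched-chain amino acid breakdown, had responses of 2.57 ± 0.28 in wild type and 0.66 ± 0.28 in the double mutant, of which the latter did not pass (1.92 ± 0.40). AT4G33905 rose in both genotypes, by 3.2 ± 0.30 and 1.37 ± 0.30 (1.83 ± 0.43).

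On the low side of this set, AT1G15125, an S-adenosylmethionine-dependent methyltransferase, had the lowest difference of any of these genes. It read 10.36, 10.49 and 10.82 in mock-treated and 4.35, 6.07 and 6.09 in ABA-treated wild type, with 10.31, 10.56 and 10.96 after mock and 9.12, 9.26 and 9.31 after ABA in the double mutant. The ABA-treated wild type arrays were far under the rest, but their spread was wide and the difference of -3.68 ± 0.77 did not pass (adjusted p = 0.0673). AT4G29700, AT1G15290, AT1G14345 and AT2G31790 also turned on ABA-treated wild type, AT2G31790 with more than 1 mean involved, with differences of -2.37, -1.75, -1.68 and -1.62.

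Mock-treated wild type stood apart for 3 of the 16. These were AT4G37220 (2.24 ± 0.46), AT2G15042 (-2.39 ± 0.54) and, with more than 1 mean involved, WES1, also known as GH3.5, an enzyme that conjugates auxin to amino acids (2.18 ± 0.53). WES1 had means of 4.93 and 8.25 in wild type and of 6.54 and 7.68 in the double mutant. Mock-treated double mutant stood apart for AT5G54148 (1.96 ± 0.46) and AT5G53486 (-1.84 ± 0.46), with more than 1 mean involved in both. The ABA-treated double mutant stood alone for OTP80, a pentatricopeptide repeat protein of organelle transcript processing, which read 3.39, 3.61 and 3.89 after mock and 3.18, 3.42 and 4.69 after ABA in wild type and 4.81, 4.96 and 5.29 after mock and 6.99, 8.06 and 8.23 after ABA in the double mutant (-2.61 ± 0.63, adjusted p = 0.118). Its level in sal1-8 went from 4.79 to 6.82.

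Of all 13843 probe sets tested, 880 were called upward in wild type and 194 in the double mutant (12.0% and 1.82% in either direction). Of 24 listed ABA-raised marker genes 17 were measured. All 17 rose in wild type, 13 of the 17 rose in the double mutant, and 0 of the 17 were called in the difference (0.137% of all tested). Of these, 10 are named here only by a table that the study drew up from the wild type ABA response on these arrays, so their rise in wild type was a condition of their inclusion. The median difference of the 17 was 0.73, against -0.05 over all 13843 probe sets tested. Each difference contains the wild type response by which those 10 were chosen, so these medians are not on equal terms. Over the 7 markers named by the array annotation the median was 0.77. All 7 were called as raised in wild type, and the list was chosen with earlier results of these data known. This median is therefore not free of such a choice either. At an unadjusted p under 0.05, limma counted 4 of the 17 higher in wild type and 1 lower (1513 of all 13843 in either direction). No listed gene of any list was called at the adjusted threshold.

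The 4 were RAB18, a dehydrin, LTI30, a dehydrin as well, COR15B, a chloroplast protein that protects membranes in cold, and RD20, a caleosin of lipid droplets. RAB18 rose from 5.28, 5.6 and 5.67 to 9.13, 9.2 and 10.33 in wild type and from 5.38, 6.04 and 6.36 to 7.36, 7.58 and 7.68 in the double mutant. Both responses passed the test and the arrays of mock and ABA did not overlap, but the difference of 2.42 ± 0.44 did not pass (adjusted p = 0.0547). Means of LTI30 were 3.08 and 7.06 in wild type and 1.72 and 3.91 in the double mutant (difference 1.79 ± 0.40). Means of RD20 were 7.29 and 11.37, and 8.53 and 10.46 (difference 2.15 ± 0.62). COR15B was the only one of the 4 without a called response in the double mutant, with means of 7.91 and 9.92, and 8.38 and 8.92 (difference 1.48 ± 0.39).

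The marker with the opposite sign was RD26, a NAC transcription factor, with means of 6.74 and 8.73 in wild type and 5.53 and 8.95 in the double mutant (difference -1.43 ± 0.55). Its mock level was lower in the double mutant, and the ABA levels lay close to each other. AFP1, an ABI5-binding protein, rose by 4.5 ± 0.33 and 4.6 ± 0.33 in the 2 genotypes, and COR15A by 0.96 ± 0.23 and 0.95 ± 0.23, with differences of -0.10 and 0.00.

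The negative regulators and the receptors each kept the sign of their response in both genotypes. The 3 group A PP2C phosphatases measured of 9 listed rose in both genotypes: ABI1 by 2.38 ± 0.29 and 2.34 ± 0.29, HAB2 by 1.62 ± 0.25 and 1.2 ± 0.25, and PP2CA by 2.73 ± 0.29 and 2.92 ± 0.29. Their differences had 95% intervals of -0.83 to 0.92, -0.32 to 1.17 and -1.06 to 0.68, which leave room for a difference in either direction. The receptors measured, 2 of 14, fell in both, PYL4 with responses of -2.98 ± 0.41 and -2.48 ± 0.41 and PYL8 with -1.23 ± 0.24 and -1.04 ± 0.24. These phosphatases and receptors are all named only by the study's table, so that their response in wild type was a condition of their inclusion. That response is part of each difference, so only the double mutant values lie outside the choice. The 10 SnRK2 kinases listed were not measured under a name used here.

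Of 42 calcium-dependent protein kinases and related kinases 6 were measured and 0 called in the difference, at a share of 0.137% over all tested. CRK2 had means of 7.86 and 9.68 in wild type and of 8.93 and 9.72 in the double mutant (1.03 ± 0.45), and CPK27, named only by the study's table, had 6.94 and 5.92, and 6.57 and 6.39 (-0.84 ± 0.38). Their adjusted p were 0.399 and 0.459. CRK4, CRK6, CRK7 and CRK8 had no called response in either genotype.

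Among guard cell genes, GORK, the outward potassium channel that lets potassium leave guard cells as stomata close, came nearest to the threshold. It read 5.18, 5.25 and 5.49 in mock-treated and 6.52, 7.24 and 7.47 in ABA-treated wild type, and 4.75, 5.08 and 5.34 after mock and 4.8, 4.89 and 5.18 after ABA in the double mutant. Of these 4 groups ABA-treated wild type alone was high, and the double mutant arrays overlapped (1.86 ± 0.36, adjusted p = 0.0612). In ost1-2 the means of GORK were 6.38 after mock and 6.36 after ABA. FAMA, a transcription factor of guard cell fate, went the other way, with means of 7.1 and 5.9 in wild type and 7.13 and 6.91 in the double mutant (-0.98 ± 0.29, adjusted p = 0.223). The anion channel SLAH3 had responses of 1.69 ± 0.45 and 0.75 ± 0.45 and the NADPH oxidase RBOHF of 1.42 ± 0.21 and 0.86 ± 0.21, of which the wild type ones passed the test. GORK, SLAH3, RBOHF and TGG2 are named only by the study's table of genes responding in wild type, so that a wild type response, by the study's own call, was a condition of their inclusion. The myrosinase TGG2 had a difference of -2.83 ± 1.41, too uncertain to call. The plot of list members shows these intervals.

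**Figure D4:**
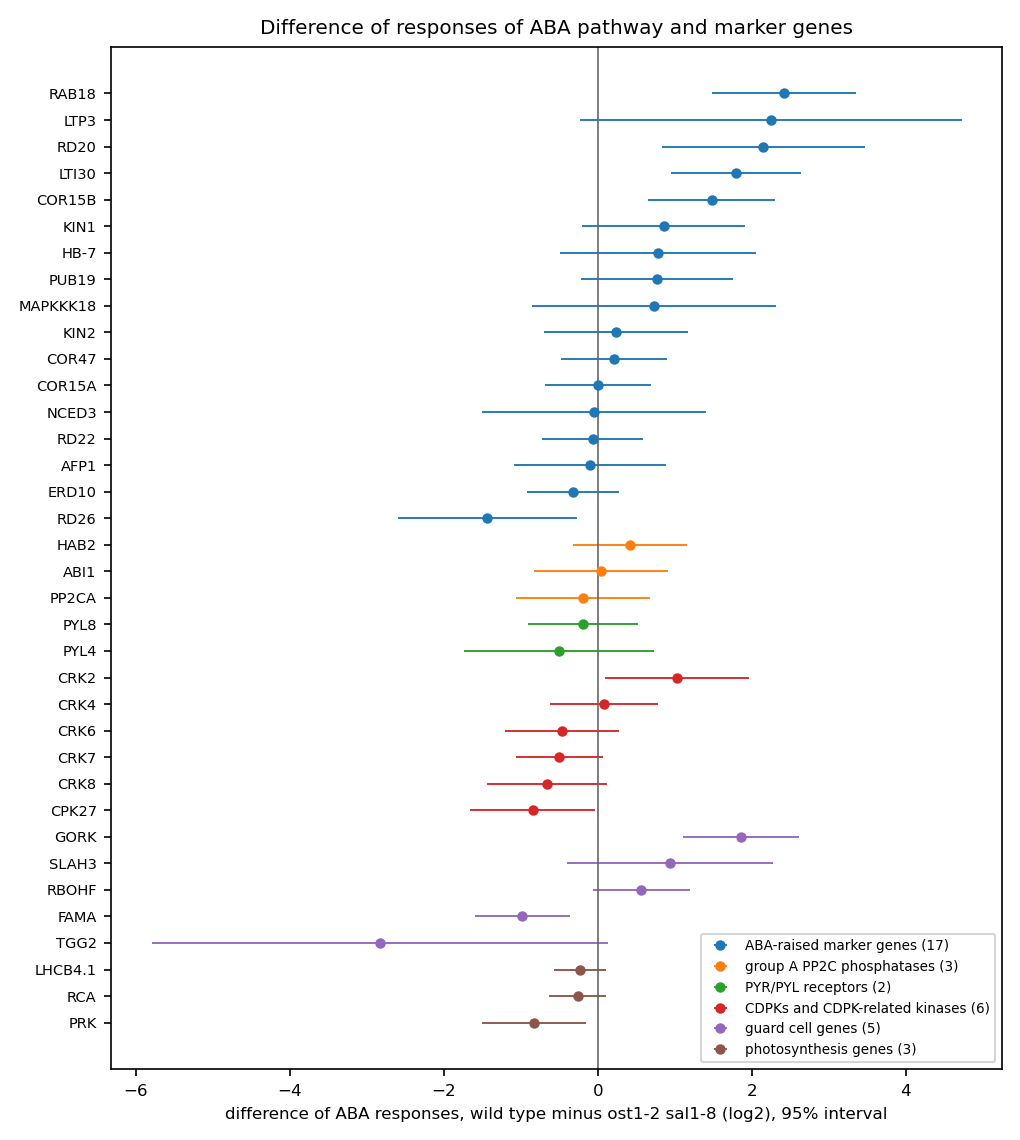
Difference of ABA responses, wild type minus ost1-2 sal1-8 (horizontal axis, log2), of the measured members of 6 gene lists, with points for estimates and bars for 95% intervals. RAB18, RD20, LTI30, COR15B and GORK lie right of 0 and RD26 and FAMA left of it, with none called after adjustment over all probe sets.

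Other lists held fewer measured genes, of which ELF4, PRR9, DREB2A, PAP1, JAZ7, CYP707A3 and NCED3 are likewise named only by the study's table and were chosen there for their wild type response. ELF4, of the circadian clock, had responses of 1.68 ± 0.36 and 0.48 ± 0.36 and a difference of 1.2 ± 0.51, and PRR9 and GI differed by 0.23 and -0.08. ZAT10 and DREB2A, stress-induced transcription factors of the high light response, rose in wild type by 1.84 ± 0.43 and 1.21 ± 0.27 and had differences of 0.44 and 0.32. PAP1, here the MYB transcription factor of anthocyanin synthesis, and DFR, an enzyme of that pathway, had differences of 1.15 and 1.11. PRK, the phosphoribulokinase of the Calvin cycle, had means of 9.64 and 9.06 in wild type and 7.39 and 7.64 in the double mutant (-0.83 ± 0.32). JAZ7 and PDF1.2, jasmonate genes, differed by 0.35 and -0.36, SAG101, of defence signalling, by -0.12, and CYP707A3, which breaks down ABA, by 0.94. The ABA synthesis gene NCED3 had responses of 1.57 ± 0.49 and 1.62 ± 0.49 and a difference of -0.05. None of 6 heat shock genes was measured under a name used here. The reference genes UBC21 and TIP41 differed by 0.27 and 0.06.

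Over every probe set of the array at the same floor, 20 of 31601 were called (0.0633%), 12 with a higher and 8 with a lower response in wild type. The 12 listed by the annotation are all among the 19, and 8 are named by no table used here, of which 6 had a higher response in wild type. ABA-treated wild type stood apart for 5 of these 8. Probe set 13523885 read 2.97, 3.16 and 3.31 in mock-treated and 6.31, 7.64 and 7.96 in ABA-treated wild type, and 2.92, 3.2 and 3.41 after mock and 2.54, 2.7 and 3.34 after ABA in the double mutant (4.47 ± 0.58, adjusted p = 0.0131).

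Probe set 13416339 was the mirror of this, high in the ABA-treated double mutant alone, with means of 5.85 and 5.71 in wild type and 5.77 and 8.3 in the double mutant (-2.67 ± 0.45, adjusted p = 0.041). It rose in sal1-8 as well, by 2.47 ± 0.32. Probe set 13513933 was the only called one in which mock-treated double mutant stood apart. Its response in sal1-8 was 3.43 ± 0.26. Its means were 8.56 and 10.48 in wild type and 5.68 and 9.69 in the double mutant, so that the double mutant rose by more, from a lower mock level, to below the level of wild type (-2.09 ± 0.37, adjusted p = 0.041).

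The calls depended on single arrays to different degrees. AT1G72760, AT5G45690, AT3G50400, AT5G15980 and NAXT1 stayed called in each of the 12 fits that leave out 1 array and in each of the 12 other settings tried, and AT1G75900 stayed called in each leave-out. At the other end, AT3G26490 stayed called in 1 of the 12, and AT5G45950 and AT1G76170 in 2. No difference of the 19 changed sign in any of these fits. AT3G17640 was lost without array C of the mock-treated double mutant. Without that array 6 of the 19 stayed called and no others were, without array A of the same group 11, and without array D of the ABA-treated double mutant 12 were called. Without array G or array E of ABA-treated wild type, 50 and 38 were called instead. Leaving out array F of mock-treated wild type and array E of the ABA-treated double mutant together, a choice made after seeing the data, left 5 calls, 4 of them among the 19. The mean that stands apart stayed the same for 17 to 19 of the 19 genes when 1 array was left out, and AT5G15980 changed most often.

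**Figure D5:**
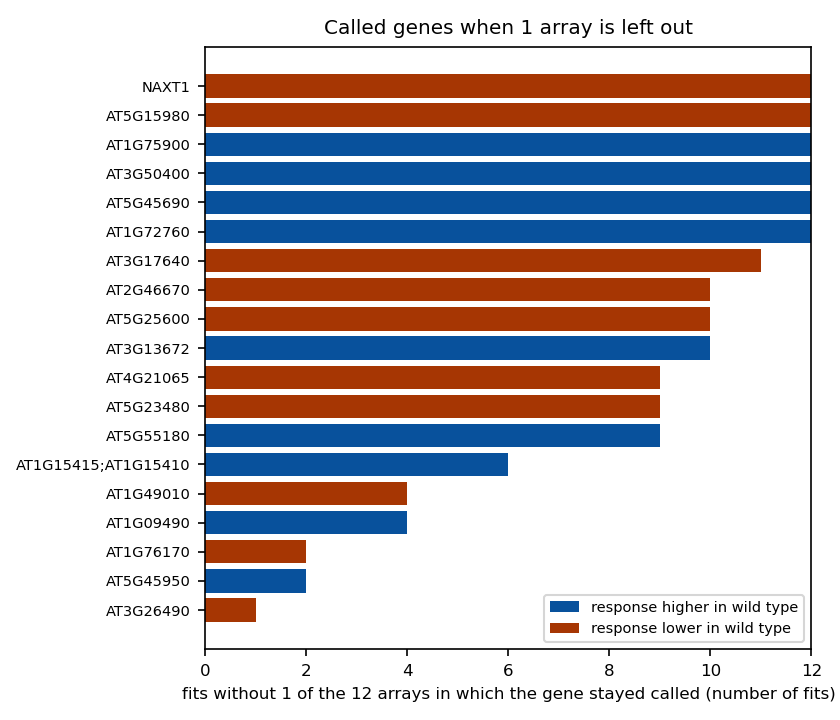
Number of the 12 leave-out fits (horizontal axis, number of fits) in which each of the 19 probe sets stayed called, with blue for a response higher and brown for a response lower in wild type. The top 6 stayed called in all 12, and AT3G26490 in 1.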

How the data were processed

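The 22 arrays were Affymetrix Arabidopsis Gene 1.0 ST arrays of leaf RNA. The authors deposited log2 intensities of 38408 probe sets, background corrected, quantile normalized and summarised by RMA with oligo 1.28.0 in R 3.1.0, and ran limma 3.20.1. Of these, 17481 are named by the array annotation, 16722 with 1 gene and 759 with several. Tests here used limma 3.58.1 in R 4.3.3 on the deposited log2 values: a model of 8 groups, empirical Bayes and Benjamini-Hochberg adjustment over the 13843 named probe sets whose highest group mean was at least 3. Genes that only the study's table names were taken from the same fit over 31601 probe sets. A call needs an adjusted p under 0.05 and a fold above 1.5. Named are every called gene, the 8 highest and 8 lowest uncalled ones at an unadjusted p under 0.001, the members of 16 lists, and those next to the threshold. Members and lists were chosen with earlier results of these data known. The script was checked on simulated data. The number of arrays limits the precision. Array medians were 4.6 to 5.0. Samples were grouped by source labels. Detection p-values, promoter motifs and sequences were not used here, and 0 columns belonged to other samples. The alternatives tried are floors, probe sets, fold, arrays, weights, normalization, run blocks and leave-outs.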

Additional observations from a re-analysis of the deposited data

Results flagged for a closer look

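The interaction of genotype and treatment, tested by limma over 13843 probe sets, marked 19 for a closer look because their ABA responses differed between wild type and ost1-2 sal1-8. With a response higher in wild type these were AT1G72760 (4.09), AT3G13672 (3.37), AT5G55180 (2.11), AT5G45690 (2.05), AT3G50400 (2.02), AT5G45950 (1.86), AT1G09490 (1.52), the probe set of AT1G15415 and AT1G15410 (1.52) and AT1G75900 (1.26). With a response lower in wild type they were AT3G26490 (-1.19), AT1G49010 (-1.46), AT5G23480 (-1.62), AT4G21065 (-1.65), AT1G76170 (-1.71), AT5G25600 (-1.84), AT5G15980 (-2.49), NAXT1 (-2.5), AT2G46670 (-2.81) and AT3G17640 (-2.97), all log2. No outlier test within a group was run on groups of 3 arrays. The fits that leave out 1 array are given with the processing.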

How the results depend on the processing

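Under the 12 other settings, the leave-outs and the added omission, the 19 called differences kept their direction throughout, and 5 genes stayed called in every setting and leave-out, not counting the added omission. The count of 19 became 9 in a fit of the 12 arrays alone (8 of them among the 19), 33 with array weights (18 among the 19), and 25 with a floor of 5. It was 18 to 26 under the other floors, scalings, eBayes options and fold. With the run of sample numbers as a fixed replicate block it was 14 (11 among the 19) and as a random replicate block 20. The correlation of deviations between same-run arrays of the 2 genotypes was -0.10 to 0.05, so the runs were not treated as pairing the samples. Whether a run effect accounts for the calls lost under the fixed block was not tested. Leaving out 1 array gave 6 to 50 calls, and leaving out array F of mock wild type with array E of the ABA double mutant, added after seeing the data, gave 5.

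The count of wild type responses, 1657, was 3354 over the whole array, 1018 to 1815 without 1 array and 1078 without those 2 arrays, and that of the double mutant, 252, was 460 over the whole array, 577 with array weights and 108 to 333 without 1 array. Mock levels gave 4216 and ABA levels 7242 calls over the whole array. The whole-array difference, 20, was 45 with a floor of 5, 7 with the 12 arrays, 4 with the fixed replicate block and 4 to 39 without 1 array. A member of the lists was called in the difference in 1 leave-out, COR15B without array C of mock wild type (0 to 1). The number of genes whose difference a single mean makes, 15, was 12 to 15 without 1 array. The cause of these changes was not tested. Signal near background limits genes such as AT2G46670, AT5G23480, AT5G45690 and AT3G50400, and 6 of the 19 called had a highest group mean under 6. Of the 4 groups, only ABA-treated wild type lay well above the floor of 3 for AT5G45690 and AT3G50400. The 3 arrays per group limit all differences, since the median SE was 0.30. The motif count planned for promoters was not run, because no promoter sequence was used here.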

Other observations

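Genes that the array annotation does not name, but that a table of the study does, were chosen here after their values were seen. Of these, 27 had an unadjusted p under 0.001 without passing the adjusted threshold (adjusted p from 0.055 to 0.174), 14 with a higher and 13 with a lower response in wild type, and ABA-treated wild type stood apart for 23 of them. All come from a list that the study chose for its ABA response in wild type on these arrays, so the mean that stands apart is not independent of how they were chosen.

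BGAL4, a beta-galactosidase, had means of 7.44 and 9.73 in wild type and 7.07 and 5.46 in the double mutant (difference 3.91 ± 0.88). CER3, of cuticular wax synthesis, had 9.76 and 11.62 against 10.91 and 11.13 (1.64 ± 0.34), and SIP2, an alpha-galactosidase of raffinose breakdown, 9.02 and 10.83 against 11.12 and 11.16 (1.77 ± 0.44). In CER3 and SIP2 mock-treated wild type stood apart, and the mock-treated double mutant was near ABA-treated wild type. HO3, a heme oxygenase, had 5.27 and 6.74 against 3.76 and 3.64 (1.59 ± 0.30), and PLC4, a phosphoinositide phospholipase C, 4.38 and 7.11 against 3.72 and 4.87 (1.57 ± 0.31).

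On the low side, CHLI1, a magnesium chelatase subunit of chlorophyll synthesis, had means of 10.05 and 8.49 in wild type and 10.13 and 10.1 in the double mutant (-1.54 ± 0.36). AAP6, an amino acid permease, had 10.2 and 8.72 against 8.71 and 8.67 (-1.44 ± 0.32), with mock-treated wild type apart. None of these genes was called.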
